A study of Mus musculus with 8 samples.

Results

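The comparison described here set an antibody against the interleukin-6 receptor (anti-IL-6R) against a control antibody in the CD4+ T cells of mice carrying a tumour. It rested on 4 of the 8 arrays of the series, chosen by their titles: replicates 3 and 4 from tumour-bearing mice given control antibody, and replicates 7 and 8 from tumour-bearing mice given anti-IL-6R. All mice were C57BL/6 and were given transgenic CD4+ T cells whose receptor recognises ovalbumin (OVA), followed by dendritic cells loaded with the OVA peptide. The tumour was MCA205, a fibrosarcoma made to express OVA. CD4+ T cells were isolated 4 days after this immunisation. The other 4 arrays, from tumour-free mice given the same transfers with control antibody (replicates 1 and 2) or anti-IL-6R (replicates 5 and 6), served for the shared estimate of spread and for a test of the difference between hosts. The antibody clones and doses, the age and sex of the mice, the number of mice per array and the purity of the cells are not stated in the labels. Neither is it stated whether the transferred cells were separated from the CD4+ T cells of the host. Per the series' design text, each condition was done in 2 independent experiments.

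IL-6 binds its receptor chain IL-6R, which recruits the signalling chain gp130 and activates the transcription factor STAT3. In helper T cells STAT3 supports the follicular helper (Tfh) and Th17 programmes and the expression of the transcription factor c-Maf, which in turn activates the cytokine genes Il4 and Il21. Th1 cells, the helper subset that makes interferon-gamma, depend on the transcription factor T-bet and on IL-12. The series asks which molecular events lie behind an inhibition of Th1 cells through IL-6 in mice with tumours.

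The RNA was read on 1-colour microarrays of 60-base probes. Each level is the log2 of the probe's signal minus the log2 of that array's 75th percentile, so 0 marks the 75th percentile of an array and a higher number a brighter probe. A difference is the mean of the anti-IL-6R arrays minus the mean of the control antibody arrays on this scale, and errors are standard errors from limma with 2 arrays per group. A gene rose or fell where limma's adjusted p lay below 0.05. The 75th percentile signals of the 8 arrays lay between 500.4 and 526.5, and 53.1% to 59.8% of probes were well above background. Of the 4 tumour-bearing arrays, replicate 8 had the highest share (59.8%) and replicate 7 the lowest (53.6%). Over the tested genes the levels correlated at 0.994 between replicates 3 and 4, at 0.993 between replicates 7 and 8, and at 0.979 to 0.988 across the groups. All arrays were on 1 slide, with the control antibody arrays in its first column and the anti-IL-6R arrays in its second, so antibody and slide column cannot be told apart.

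The arrays carried the signature of T cells. Cd3e, a chain of the T cell receptor complex, was at 6.38 and 6.47 under control antibody and at 6.23 and 6.19 under anti-IL-6R. Cd4, the coreceptor that names the cells, was at 5.65 and 5.53 and then at 5.42 and 5.15. Both genes were bright on every array, and their differences of -0.22 ± 0.07 and -0.30 ± 0.11 did not pass the test (adjusted p = 0.0973 and 0.106). Genes of other blood cells were also present. For example, Hba-a1, an alpha globin gene of red cells, was at 9.37, 8.82, 9.14 and 8.86 on replicates 3, 4, 7 and 8.

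Under anti-IL-6R, 1269 of 21306 genes changed in tumour-bearing mice (5.96%), of which 437 were higher (2.05%) and 832 lower (3.91%). A change of at least 2-fold was seen in 202 of the genes that rose (0.948% of all tested) and 116 of those that fell (0.544%). The median difference over all tested genes was -0.05. Both anti-IL-6R arrays lay above both control arrays for 24.6% of all genes and below both for 36.7%, so groups that do not overlap were common. A difference below 0, taken to 2 decimals, was found for 57.5% of all genes and a difference above 0 for 41.1%. Among the gene lists described below, 42 of 55 cell cycle genes, 13 of 25 red cell precursor genes, 10 of 20 Tfh genes and 8 of 22 neutrophil genes fell. Those with the most rises were 9 of 23 immediate early genes, 6 of 13 endothelial, 6 of 17 natural killer (NK) cell and 5 of 18 B cell markers, and 4 of 18 genes of the BCL2 family. These calls depended on single arrays: the count was 227 without replicate 3, 261 without replicate 4 and 20 without replicate 8, against 1736 without replicate 7. It was 868 and 867 without replicates 1 and 2, and 1499 and 1560 without replicates 5 and 6. The balance of directions moved too: 34.4% of the calls were higher with all arrays, 74.0% without replicate 3, 24.1% without replicate 4, 47.3% without replicate 7 and 70.0% without replicate 8. Of the 135 named genes past the threshold, 129 lost their call without replicate 8, and 5 kept it with each array left out in turn (Camp, Ltf, Ngp, Mpo and Tox2). With replicate 8 left out, the anti-IL-6R group is a single array whose spread is taken from the other groups. Ngp entered the fit only through the control arrays, so its call is a description.

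**Figure D1:**
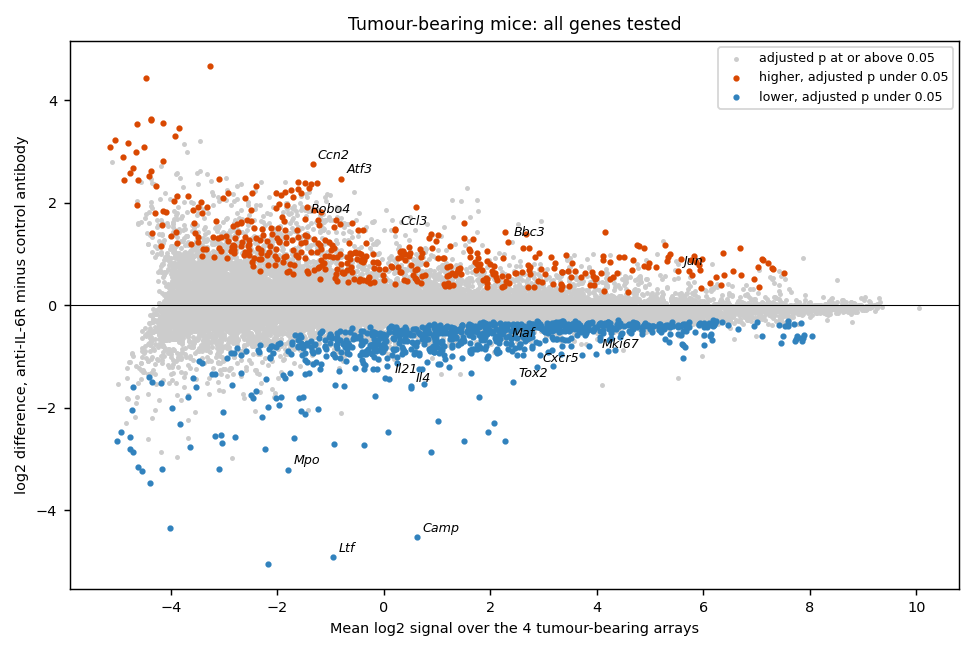
Difference between anti-IL-6R and control antibody in tumour-bearing mice (vertical, log2) against the mean level over the 4 tumour-bearing arrays (horizontal, log2), 1 point per gene tested. Genes that rose (437) are orange, genes that fell (832) blue; Camp (-4.52) and Ltf (-4.91) lie far below 0, and many of the largest rises are among dim genes on the left.

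Markers of other cell types moved between the antibody groups, and they are given first because all later results come from the same arrays. The neutrophil list held 22 measured genes, of which 8 fell, and its median difference was -0.67 (-0.54 with the 3 genes that gave only a bound placed at that bound). A difference below 0 was found for 17 of these genes and above 0 for 5, against 57.5% and 41.1% of all genes. Camp, the gene of the antimicrobial peptide cathelicidin, was at 2.95 and 2.81 under control antibody and at -1.83 and -1.44 under anti-IL-6R, a difference of -4.52 ± 0.23 or 22.9-fold (adjusted p = 0.000908). Ltf, which encodes lactoferrin, was at 1.56 and 1.45 and then at -3.63 and -3.19, a difference of -4.91 ± 0.34 (adjusted p = 0.00219). Mpo, the gene of myeloperoxidase, was at -0.05 and -0.35 and then at -3.38 and -3.44, a difference of -3.21 ± 0.20 (adjusted p = 0.00133). For these granule genes the groups were far apart and their replicates close together. Ngp, neutrophilic granule protein, was at 0.37 and 0.31 under control antibody and not well above background on either anti-IL-6R array (-4.74 and -4.68), so it was at least 21.3-fold lower; it entered the fit only through the control arrays. These bounds take the lowest signal called well above background on each array, or the probe's own signal where higher, as the level of the dim group. Lcn2 and Ly6g fell by 2.48 ± 0.56 and 0.59 ± 0.09 (adjusted p = 0.0436 and 0.0245). S100a8, an abundant neutrophil transcript, was at 4.87 and 4.87 and then at 3.67 and 2.97, which did not pass (adjusted p = 0.117). The summed linear signal of the list, in units of the 75th percentile, was 254 to 255 under control antibody and 204 to 215 under anti-IL-6R. Without replicate 3, 4, 7 or 8, the number of neutrophil genes that fell was 4, 4, 7 and 4.

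Red cell precursor genes fell as well, in 13 of 25, with a list median of -1.78 (-1.32 with bounds). Slc4a1, the anion exchanger of the red cell membrane, was at 3.84 and 2.58 under control antibody and at 1.30 and 0.52 under anti-IL-6R (-2.30 ± 0.51, adjusted p = 0.0416). Ahsp, which stabilises alpha globin, was at 4.20 and 2.98 and then at 1.43 and 0.47 (-2.64 ± 0.56, adjusted p = 0.0395). Replicate 3 was higher than replicate 4 for both genes, and neither group reached into the other. Gata1, the master transcription factor of red cell precursors, was at 1.51 and 1.49 and then at 0.72 and 0.58 (-0.85 ± 0.09, adjusted p = 0.0157). Aqp1, Klf1 and the blood group gene Rhd fell by 2.26 ± 0.29, 0.99 ± 0.19 and 2.87 ± 0.54. The globin gene Hba-a1 stood at -0.09 ± 0.30 (adjusted p = 0.866). The summed signal, which the globins dominate, was 733 to 1180 under control antibody and 718 to 890 under anti-IL-6R. The number of red cell genes that fell was 2, 6, 12 and 0 without replicate 3, 4, 7 or 8, and in tumour-free mice the list median was 1.03.

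Several other lists rose. B cell markers were above 0 in 18 of 18, against 41.1% of all genes, and rose in 5, against 2.05%. Their median was 0.63. Cr2, a complement receptor, rose by 0.92 ± 0.18 and Ms4a1, the gene of CD20, by 0.69 ± 0.16 (adjusted p = 0.0328 and 0.0479). The summed B cell signal was 103 to 157 under control antibody and 185 to 192 under anti-IL-6R. NK cell markers rose in 6 of 17 with a median of 0.52. Of these 17 markers, 13 were above 0 and 4 below 0. The NK receptor gene Klra8 was at -1.85 and -1.72 and then at -0.54 and -0.69, a difference of 1.17 ± 0.13 (adjusted p = 0.0201), and Klra4 rose by 1.22 ± 0.16. The defining NK gene Ncr1 was near background at -3.60, -3.53, -3.34 and -2.68, and genes of the Klra family are close copies whose probes may share signal. The summed NK signal was 42.5 to 59.9 and then 61.5 to 67.0. Endothelial markers rose in 6 of 13 with a median of 1.09 (0.99 with bounds). Their summed signal was only 8.29 to 8.69 under control antibody and 15.0 to 16.6 under anti-IL-6R. In tumour-free mice the endothelial median was 0.71, while the B cell and NK cell medians were -0.09 and 0.07. The summed endothelial signal there was 9.31 to 11.0 under control antibody and 13.5 to 19.1 under anti-IL-6R. Robo4, a guidance receptor of blood vessels, was at -2.50 and -2.15 and then at -0.77 and -0.50 (1.69 ± 0.17, adjusted p = 0.0157), while the endothelial gene Pecam1 stood at 0.03 ± 0.09. Without replicate 8, the count that rose was 0 in each of these 3 lists. Without replicate 3, 4 or 7 it was 6, 0 and 1 for B cells, 4, 4 and 5 for NK cells, and 1, 2 and 4 for endothelium.

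The remaining marker lists are given by their medians and calls. Of 16 pan T cell genes, whose median was -0.24, 1 fell (Thy1 at -0.38 ± 0.09, adjusted p = 0.0451), and their summed signal was 1460 to 1490 under control antibody and 1170 to 1300 under anti-IL-6R. Macrophage and monocyte genes had a median of 0.49, with Cd14 higher (1.14 ± 0.25) and Ccr2 (-0.96 ± 0.15) and Ly6c1 (-0.29 ± 0.07) lower. Another Ly6c1 probe gave 0.22 ± 0.08. Csf1r differed between the control arrays (5.60 and 4.63). The summed signal of the macrophage and monocyte list was 344 to 476 and then 439 to 495. The macrophage result rested on single control arrays: without replicate 3 its median was 0.92 and 7 genes rose, and without replicate 4 its median was -0.01, none rose in limma and 2 fell. Dendritic cell genes had a median of 0.32, with a summed signal of 447 to 586 and then 669 to 675. In the plasma cell list 1 of 11 fell, Derl3 at -0.92 ± 0.13 (adjusted p = 0.0237), with a median of -0.33. Of 189 immunoglobulin features, gathered once the values were known and with variable segments that share sequence, 35 fell and 2 rose, with a median of -0.58. Of 11 platelet genes, whose median was 0.48, 2 rose (Ppbp at 1.04 ± 0.18 and Pf4 at 0.88 ± 0.19). Of 10 fibroblast genes, whose median was 0.55, 2 rose (Cxcl12 at 1.39 ± 0.22 and Sparc at 0.94 ± 0.20), and Thy1, also in this list, fell. In the CD8 T cell list, Klrd1 rose, and Cd8a stood at -1.51, -2.55, -1.05 and -1.63 on replicates 3, 4, 7 and 8. Of Thy1, Cd14, Ccr2, Derl3, Ppbp, Pf4, Cxcl12, Sparc and Klrd1, Cxcl12 alone was kept without replicate 8 (adjusted p = 0.0499), and the others then had adjusted p values from 0.12 to 0.252. Without replicate 3, Cxcl12 did not pass (0.0761). In bulk RNA, fewer cells of a type and less RNA per cell cannot be told apart. The part that these marker shifts have in the T cell results below was not tested.

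**Figure D2:**
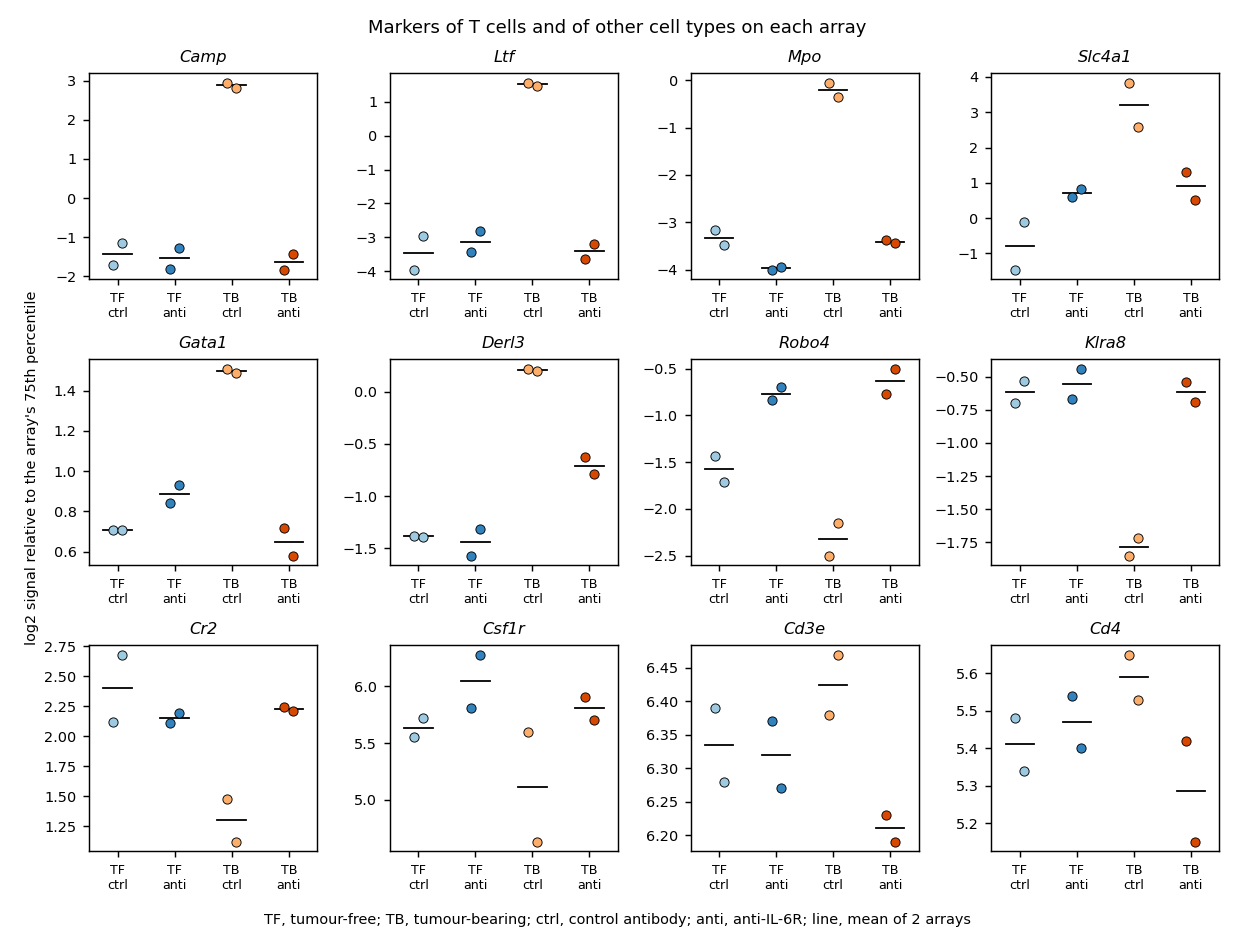
Levels of marker genes on each of the 8 arrays (vertical, log2 relative to the 75th percentile, each panel with its own range), by group (horizontal), with a line at the mean of each group's 2 arrays. The neutrophil granule genes Camp, Ltf and Mpo and the red cell gene Gata1 are highest under control antibody in tumour-bearing mice, while Robo4 and Klra8 are lowest there; Cd3e spans 6.19 to 6.47 over all arrays.

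The antibody blocks the receptor of IL-6, so the pathway from the receptor to STAT3 is described next. Il6ra, the gene of the receptor chain itself, was at 5.42 and 5.69 under control antibody and at 5.85 and 5.77 under anti-IL-6R (0.25 ± 0.09, adjusted p = 0.114). Il6st, which encodes gp130, was at 2.64 and 2.50 and then at 2.30 and 2.17 (-0.33 ± 0.09, adjusted p = 0.0623). Neither receptor gene passed the test, although the arrays of the groups did not overlap for either. Stat3 was at 4.21 and 4.23 and then at 3.89 and 3.87, a fall of 0.34 ± 0.08 (adjusted p = 0.0435). The groups lay well apart relative to their replicates on this probe, while 2 dimmer Stat3 probes gave 0.03 ± 0.22 and -0.13 ± 0.16. The Stat3 call was lost without replicate 1, 2, 3, 4, 7 or 8 (adjusted p from 0.0555 to 0.235), under quantile normalization, with the mean of its probes, with array weights and with the tumour-bearing arrays fitted alone. Stat3 also lost its call with no filter on dim probes and with no intensity trend. Socs3, the feedback inhibitor that STAT3 induces, was at 4.58 and 5.28 and then at 4.05 and 4.06 (-0.87 ± 0.23, adjusted p = 0.0576). The control arrays of Socs3 differed from each other, and its adjusted p without replicate 3 was 0.0484. Il6 itself was not measured, since its probes were not well above background on both arrays of either group.

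Over the 27 measured genes of the IL-6 receptor and STAT3 list, 5 fell and 3 rose, against 3.91% and 2.05% of all genes. The median was -0.06, near that of all genes, and it was 0.05 under quantile normalization. Those that fell were Stat3, Maf, Il21, Batf, an AP-1 factor of activated T cells (-0.51 ± 0.09, adjusted p = 0.0262), and the phosphatase gene Ptpn11 (-0.46 ± 0.08, adjusted p = 0.0262). Those that rose were Tnfaip3, which encodes the NF-kappaB inhibitor A20 (1.43 ± 0.31, adjusted p = 0.0396), the immediate early gene Fos (1.17 ± 0.27, adjusted p = 0.0471), and Osmr. Osmr, the receptor gene of oncostatin M, was not well above background on either control array and was at least 1.87-fold higher; it entered the fit only through the anti-IL-6R arrays, so its call is no support for the list. Bcl6, the lineage factor of Tfh cells, was at 3.13 and 3.17 and then at 2.80 and 2.72 (-0.39 ± 0.09, adjusted p = 0.0502). Stat4, which relays IL-12 signals, stood at -0.23 ± 0.11 (adjusted p = 0.193). The number that fell was 1, 1, 3 and 0 without replicate 3, 4, 7 or 8, and the number that rose 0, 0, 3 and 0.

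c-Maf and the genes reported as its targets fell in 8 of 15 measured genes and rose in 1, with a median of -0.55. Maf was read by 3 probes, and the first 30 of the 60 bases of each are shown because all of them gave the same direction. Their mm9 positions are on the minus strand at chr8:118206902-118206961, chr8:118227736-118227795 and chr8:118207273-118207332, in the order printed.
Maf probe 1: catggaccctgcttgtttctaaacaccggt
Maf probe 2: tgggtatgtgtagttcttgctataccatgg
Maf probe 3: gaacaagccttggtttacattagaataacg
The first probe, with the highest mean over the arrays, was at 2.67 and 2.64 under control antibody and at 2.00 and 1.86 under anti-IL-6R, a difference of -0.73 ± 0.09 or 1.65-fold (adjusted p = 0.0237). The second probe was at 2.69 and 2.56 and then at 1.89 and 1.81, a difference of -0.77 ± 0.09, and the third gave -0.64 ± 0.16. All 3 probes were lower on both anti-IL-6R arrays than on either control array. In tumour-free mice Maf stood at 0.27 under the antibody, and the difference between hosts did not pass (adjusted p = 0.0616).

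Il4, the Th2 cytokine gene, was at 1.49 and 1.12 under control antibody and at -0.36 and -0.25 under anti-IL-6R, a difference of -1.61 ± 0.17 or 3.05-fold (adjusted p = 0.0192). Il21, a cytokine of Tfh cells that acts on B cells, was at 0.47 and 1.16 and then at -0.90 and -0.33, a difference of -1.43 ± 0.30 (adjusted p = 0.0386). The groups did not overlap for either cytokine, and the replicates of Il21 lay wider apart than those of Il4. A second, dim Il21 probe was at -3.92 and -3.71 and then at -3.97 and -3.58, a difference of 0.04 ± 0.30. Basophils also express Il4; their protease gene Prss34 fell by 1.33 ± 0.24, from a level of -2.54 and -2.50, and it was the one gene besides Il4 to fall among 11 basophil and mast cell genes. The summed signal of that list was 6.45 to 7.34 under control antibody and 7.60 to 10.7 under anti-IL-6R, and its part in the Il4 result was not tested.

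The upstream sequences of Il4 and Il21 are printed because c-Maf is known to act on both genes. They are the 250 bases before the start of each gene in RefSeq (GRCm38.p6, minus strand), for Il4 chr11:53618666-53618915 and for Il21 chr3:37232637-37232886. Capitals mark TGCTGA, a half-site of the Maf recognition element, on either strand.
Il4: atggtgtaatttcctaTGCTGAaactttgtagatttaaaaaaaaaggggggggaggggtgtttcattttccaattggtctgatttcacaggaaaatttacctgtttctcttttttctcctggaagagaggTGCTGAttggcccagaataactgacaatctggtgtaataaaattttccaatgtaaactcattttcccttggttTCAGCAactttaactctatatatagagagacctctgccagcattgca
Il21: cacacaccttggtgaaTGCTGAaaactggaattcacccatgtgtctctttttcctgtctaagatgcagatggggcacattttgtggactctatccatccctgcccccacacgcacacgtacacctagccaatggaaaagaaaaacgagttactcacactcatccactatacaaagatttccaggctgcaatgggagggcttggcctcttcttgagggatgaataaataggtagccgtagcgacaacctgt
The letters occur 3 times in the Il4 window and 1 time in that of Il21, and 16.1% of 32851 RefSeq windows of the same length hold them at least once. The window of another annotated Il4 start holds none. TTCNNNGAA, the letters that STAT proteins recognise, are in neither window and in 7.02% of all windows. Of the 8 genes of the c-Maf list that fell, 4 had a RefSeq window and 2 of these (Il4 and Il21) held TGCTGA.

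Of the other genes of this list, Icos, Pdcd1, Cxcr5, Tigit and Lag3 fell and Havcr2 rose. Icos, a costimulatory receptor, was at 4.66 and 4.78 and then at 4.17 and 4.18 (-0.55 ± 0.08, adjusted p = 0.0237). Pdcd1, the gene of PD-1, was at 2.72 and 3.02 and then at 2.09 and 1.99 (-0.83 ± 0.12, adjusted p = 0.0237). The inhibitory receptor genes Tigit and Lag3 fell by 0.93 ± 0.17 and 0.91 ± 0.17 (adjusted p = 0.0262 and 0.0298). Havcr2, which encodes the inhibitory receptor TIM-3 and is also expressed by myeloid and NK cells, rose by 0.65 ± 0.14 (adjusted p = 0.0397), while the NK list had a median of 0.52 and the macrophage list one of 0.49 (-0.01 without replicate 4). Il10 was at -2.71 and -2.34 and then at -2.30 and -1.75, which did not pass (0.50 ± 0.42, adjusted p = 0.459). Ctla4 and Prdm1 stood at 0.03 ± 0.17 and 0.10 ± 0.14. Over 19 inhibitory receptor and ligand genes, 4 fell (Pdcd1, Lag3, Tigit and Pdcd1lg2) and Havcr2 rose, with a median of -0.11. Without replicate 3, 4, 7 or 8, the number of genes of the list that fell was 4, 4, 6 and 0; Maf then had an adjusted p of 0.0504, 0.0439, 0.0239 and 0.12, Il4 of 0.0297, 0.0231, 0.0239 and 0.07, and Il21 of 0.0584, 0.12, 0.0831 and 0.141.

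**Figure D3:**
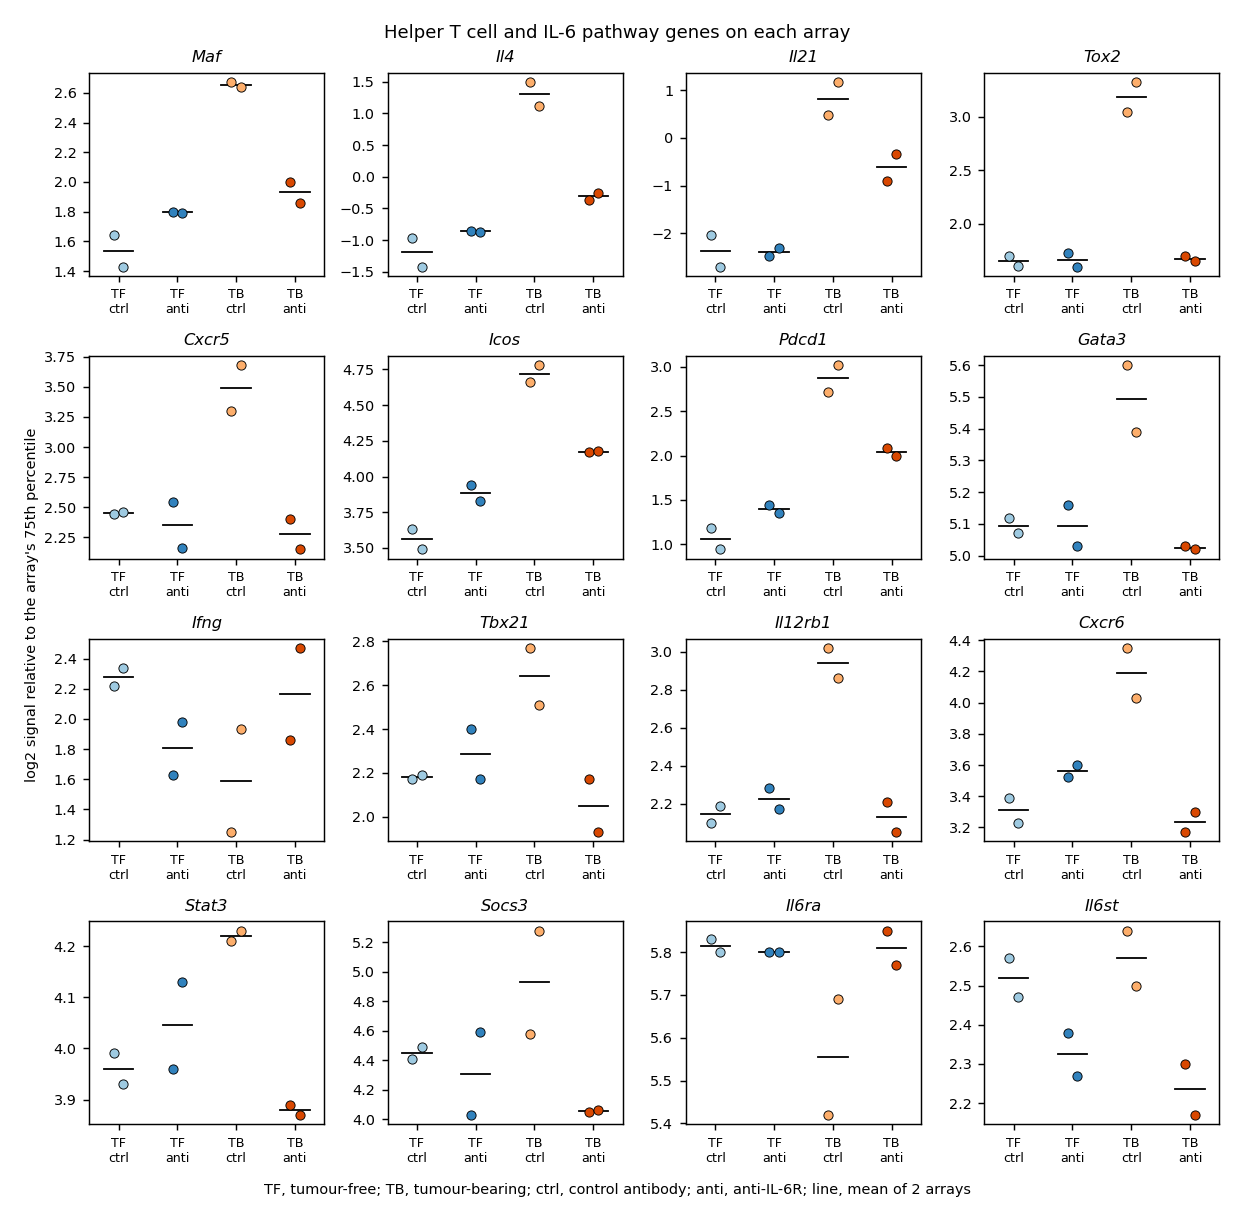
Levels of helper T cell and IL-6 pathway genes on each of the 8 arrays (vertical, log2 relative to the 75th percentile, each panel with its own range), by group (horizontal), with a line at the mean of each group's 2 arrays. Maf, Il4, Tox2, Cxcr5, Icos and Pdcd1 are higher on both control antibody arrays of tumour-bearing mice than on both anti-IL-6R arrays, whereas the Ifng levels of the 2 groups overlap (1.25 to 1.93 and 1.86 to 2.47).

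Genes of Tfh cells, the helper subset that serves B cells in germinal centres, fell in 10 of 20, and 19 of 20 had a difference below 0. The median was -0.45, and it was 0.06 for the antibody effect in tumour-free mice. Tox2, a nuclear factor of Tfh cells, was at 3.04 and 3.32 under control antibody and at 1.70 and 1.65 under anti-IL-6R, a difference of -1.50 ± 0.11 or 2.83-fold (adjusted p = 0.00243). Cxcr5, the chemokine receptor that leads Tfh cells into B cell follicles, was at 3.30 and 3.68 and then at 2.40 and 2.15 (-1.21 ± 0.16, adjusted p = 0.0237). Ascl2, a transcription factor of early Tfh cells, was at 0.05 and 0.60 and then at -0.66 and -0.71 (-1.01 ± 0.18, adjusted p = 0.0264). In each of these genes both anti-IL-6R arrays lay below both control arrays. Sh2d1a, which encodes the signalling adaptor SAP, fell by 0.66 ± 0.11 (adjusted p = 0.0247), and the list also contains Maf, Il4, Il21, Icos, Pdcd1 and Batf, given above. Tox2 was read by a pair of probes whose first 30 bases are shown because they differ in signal.
Tox2 brighter probe: cctaacgtgtgtgtggtcggggtttgggtt
Tox2 dimmer probe: gagtaacgaagactatgagattcctcctat
They lie on the plus strand of mm9 at chr2:163149771-163149830 and chr2:163101725-163101784. The dimmer probe was at -3.30 and -2.94 and then at -3.69 and -3.49, a difference of -0.47 ± 0.49. With the mean of both probes the Tox2 call was lost. The number of Tfh genes that fell was 7, 4, 9 and 1 without replicate 3, 4, 7 or 8, and the remaining 1 was Tox2 (adjusted p = 0.0296). B cell markers rose on the same arrays with a median of 0.63, and their part in the Tfh result was not tested.

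The Th1 list did not move as a whole: of 28 measured genes 4 fell and 3 rose, and the median was -0.08. Ifng, the gene of interferon-gamma, was at 1.25 and 1.93 under control antibody and at 1.86 and 2.47 under anti-IL-6R. The groups overlapped, and the difference of 0.58 ± 0.25 did not pass (adjusted p = 0.172). Tbx21, which encodes T-bet, was at 2.77 and 2.51 and then at 2.17 and 1.93, a fall of 0.60 ± 0.13 (adjusted p = 0.039). The IL-12 receptor gene Il12rb1 was at 3.02 and 2.86 and then at 2.21 and 2.05, a fall of 0.81 ± 0.10 (adjusted p = 0.0227). For both genes every anti-IL-6R array lay below every control array. The Tbx21 call was lost without replicate 1, 2, 3, 4 or 8 (adjusted p from 0.0555 to 0.235), under quantile normalization and with the tumour-bearing arrays fitted alone. Tbx21 also lost its call with no filter on dim probes and with no intensity trend. The chemokine receptor genes Cxcr3 and Cxcr6 fell by 0.63 ± 0.11 and 0.96 ± 0.12 (adjusted p = 0.0249 and 0.0237). Il12rb2, Il18r1, Il18rap and Eomes stood at -0.11 ± 0.23, 0.07 ± 0.15, -0.48 ± 0.19 and -0.31 ± 0.13, and Tnf and Il2 at 0.02 ± 0.13 and -0.58 ± 0.38, none past the test (smallest adjusted p = 0.137).

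The Th1 genes that rose were Havcr2 and the chemokine genes Ccl3 and Ccl4. Ccl3 was at -0.50 and -0.57 under control antibody and at 0.80 and 1.07 under anti-IL-6R, a difference of 1.47 ± 0.17 (adjusted p = 0.0201), and Ccl4 rose by 0.94 ± 0.22 (adjusted p = 0.0461). NK and myeloid cells also express both chemokines, and the NK marker median was 0.52 and the macrophage one 0.49 (0.92 without replicate 3 and -0.01 without replicate 4); their part was not tested. Among 14 cytotoxic effector genes, Gzma rose by 0.74 ± 0.10 (adjusted p = 0.0237) and Klrd1 by 0.52 ± 0.10 (adjusted p = 0.0345), both also NK genes. Gzmb, granzyme B, was at 1.82 and 2.30 and then at 1.99 and 1.93 (-0.10 ± 0.24, adjusted p = 0.804). Without replicate 8, none of these Th1 and cytotoxic calls passed (adjusted p from 0.0806 to 0.267). In the Th1 list 1 gene rose and 2 fell without replicate 3, 1 and 3 without replicate 4, and 2 and 4 without replicate 7.

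Genes of the other helper subsets fell where they passed the test. In the Th2 list 4 of 12 fell, with a median of -0.33. Beside Il4 these were Gata3, the Th2 lineage factor, at 5.60 and 5.39 and then at 5.03 and 5.02 (-0.47 ± 0.09, adjusted p = 0.0276), the IL-33 receptor gene Il1rl1 (-0.84 ± 0.13, adjusted p = 0.0237) and the chemokine receptor gene Ccr4 (-1.12 ± 0.18, adjusted p = 0.0245). In the Th17 list 5 of 11 fell, with a median of -0.51, and all 11 differences were below 0. Rora, which encodes a nuclear receptor of Th17 cells, was at 3.37 and 3.35 and then at 2.71 and 2.65 (-0.68 ± 0.07, adjusted p = 0.0157). Il17a was not measured. Without replicate 3, 4, 7 or 8, 1, 4, 4 and 0 genes of the Th2 list fell and 1, 2, 2 and 0 of the Th17 list.

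In the regulatory T cell list 5 of 22 fell, with a median of -0.27. Foxp3, the factor that defines these cells, was at 1.94 and 1.98 and then at 1.85 and 1.67 (-0.20 ± 0.09, adjusted p = 0.17). The members that fell were Izumo1r, the folate receptor 4 gene (-0.67 ± 0.11, adjusted p = 0.025), Tnfrsf4, the OX40 gene (-0.50 ± 0.07, adjusted p = 0.0237), Lrrc32, the GARP gene (-0.49 ± 0.09, adjusted p = 0.0285), Tnfrsf18, the GITR gene (-0.33 ± 0.07, adjusted p = 0.0387), and Ikzf3. Ikzf3 fell by 0.46 ± 0.09 (adjusted p = 0.0327) on its brightest probe, but the mean of its probes differed by 0.04. Izumo1r, Tnfrsf4 and Tnfrsf18 are also expressed by activated helper cells. Costimulators of the TNF receptor family fell in 6 of 16 with a median of -0.34, among them the ligand genes Tnfsf14 (LIGHT) at -0.78 ± 0.09 and Tnfsf11 (RANKL) at -0.73 ± 0.12 (adjusted p = 0.0237 and 0.0245). Of the regulatory list 0, 0, 6 and 0 genes fell without replicate 3, 4, 7 or 8, and of the costimulator list 3, 1, 6 and 0.

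Chemokine receptor and homing genes fell in 7 of 23 and rose in 1, with a median of -0.28. Those that fell were Cxcr5, Cxcr3, Cxcr6, Ccr4, Ccr2 and the integrin genes Itgb1 and Itgal. Ccr2, which guides monocytes and effector T cells, was at 1.81 and 1.42 and then at 0.80 and 0.51 (-0.96 ± 0.15, adjusted p = 0.0237). Cxcr4, which retains cells in marrow and lymphoid tissue, rose by 0.80 ± 0.14 (adjusted p = 0.026). Il7r, the IL-7 receptor gene of resting T cells, was at 5.47 and 5.71 and then at 6.30 and 6.26 (0.69 ± 0.09, adjusted p = 0.0237), and it was the one gene to pass among 20 of the naive and quiescence list, whose median was 0.05. In the IL-2 receptor and STAT5 list 1 of 17 fell, Jak3 at -0.63 ± 0.15 (adjusted p = 0.0492); another Jak3 probe gave 0.18 ± 0.12. In the list of T cell activation, 3 of 24 fell (Tnfrsf4, Batf and the transferrin receptor gene Tfrc at -0.57 ± 0.11) and Nr4a1, which T cell receptor signals induce, rose by 0.76 ± 0.17 (adjusted p = 0.0436). Without replicate 8 none of the genes named in this paragraph passed (adjusted p from 0.0806 to 0.247). The number of homing genes that fell was 2 without replicate 3 and 6 without replicate 4 or 7.

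Genes of the cell cycle moved together. All 55 measured members had a difference below 0, 42 of them fell, and the median was -0.69, against 0.06 in tumour-free mice and -0.05 over all genes. Mki67, the proliferation marker Ki-67, was at 4.66 and 4.26 under control antibody and at 3.60 and 3.42 under anti-IL-6R, a difference of -0.94 ± 0.15 or 1.92-fold (adjusted p = 0.0237). Ccne1, the cyclin of S phase entry, was at 2.23 and 2.11 and then at 1.42 and 1.23 (-0.85 ± 0.11, adjusted p = 0.0237). Ccnb2, a cyclin of mitosis, was at 3.59 and 3.48 and then at 2.71 and 2.56 (-0.90 ± 0.14, adjusted p = 0.0237). In each of these genes the anti-IL-6R arrays lay below the control arrays. The S phase factor E2f1 fell by 0.71 ± 0.10, the mitotic kinesin Kif20a by 0.88 ± 0.14, the mitotic kinase Cdk1 by 0.91 ± 0.15 and its cyclin Ccnb1 by 1.05 ± 0.18 (adjusted p = 0.0237 to 0.0262). Without replicate 1, 2, 3, 4, 7 or 8, the number of cell cycle genes that fell was 29, 29, 0, 10, 35 and 0, although the median stayed between -0.75 and -0.63. Red cell precursors and granulocyte precursors also divide, and their markers fell on the same arrays (medians of -1.78 and -0.67); their part in the cell cycle result was not tested.

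Immediate early genes, which respond within minutes to receptor signals or stress, rose in 9 of 23, and 1 fell, with a median of 0.49 against -0.28 in tumour-free mice. Atf3 was at -1.79 and -2.29 and then at 0.08 and 0.76 (2.47 ± 0.41, adjusted p = 0.0249). Jun was at 5.22 and 5.14 and then at 5.74 and 5.98 (0.68 ± 0.11, adjusted p = 0.0245). Fos was at 4.40 and 5.01 and then at 5.61 and 6.13, and Fosb rose by 1.61 ± 0.34 (adjusted p = 0.0395). For all of these the anti-IL-6R arrays were the higher ones, replicate 8 above replicate 7. The factor genes Klf4 and Nr4a1 and the phosphatase genes Dusp1 and Dusp2, which curb MAP kinases, rose by 1.13 ± 0.18, 0.76 ± 0.17, 1.15 ± 0.25 and 0.52 ± 0.09. The 1 that fell was Batf. Without replicate 1, 2, 3, 4, 7 or 8, the number that rose was 5, 5, 0, 2, 9 and 0. A second Fosb probe gave 0.40 ± 0.48.

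Members of the BCL2 family that promote cell death rose in 4 of 18, while the list median was -0.04 (0.02 under quantile normalization). Bbc3, the gene of PUMA, was at 1.55 and 1.88 under control antibody and at 3.04 and 2.87 under anti-IL-6R (1.24 ± 0.13, adjusted p = 0.0157). In tumour-free mice its difference was 1.15, close to that in tumour-bearing mice (interaction adjusted p = 0.792). Pmaip1, which encodes NOXA, Bmf and Bok rose by 0.92 ± 0.14, 0.84 ± 0.10 and 1.32 ± 0.20 (adjusted p = 0.0237 for each). Bmf was at -0.56 and -0.54 and then at 0.37 and 0.20, and its difference in tumour-free mice was -0.46. Another, dimmer Bmf probe gave 0.08 ± 0.14 in tumour-bearing mice. Zfp36l2, which destabilises mRNA and is linked to quiescence, was at 5.91 and 5.81 and then at 6.83 and 6.93 (1.02 ± 0.09, adjusted p = 0.0129). Of the BCL2 family genes, 2, 2, 4 and 0 rose without replicate 3, 4, 7 or 8, and Bbc3 and Zfp36l2 had adjusted p values of 0.052 and 0.0536 without replicate 8.

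**Figure D4:**
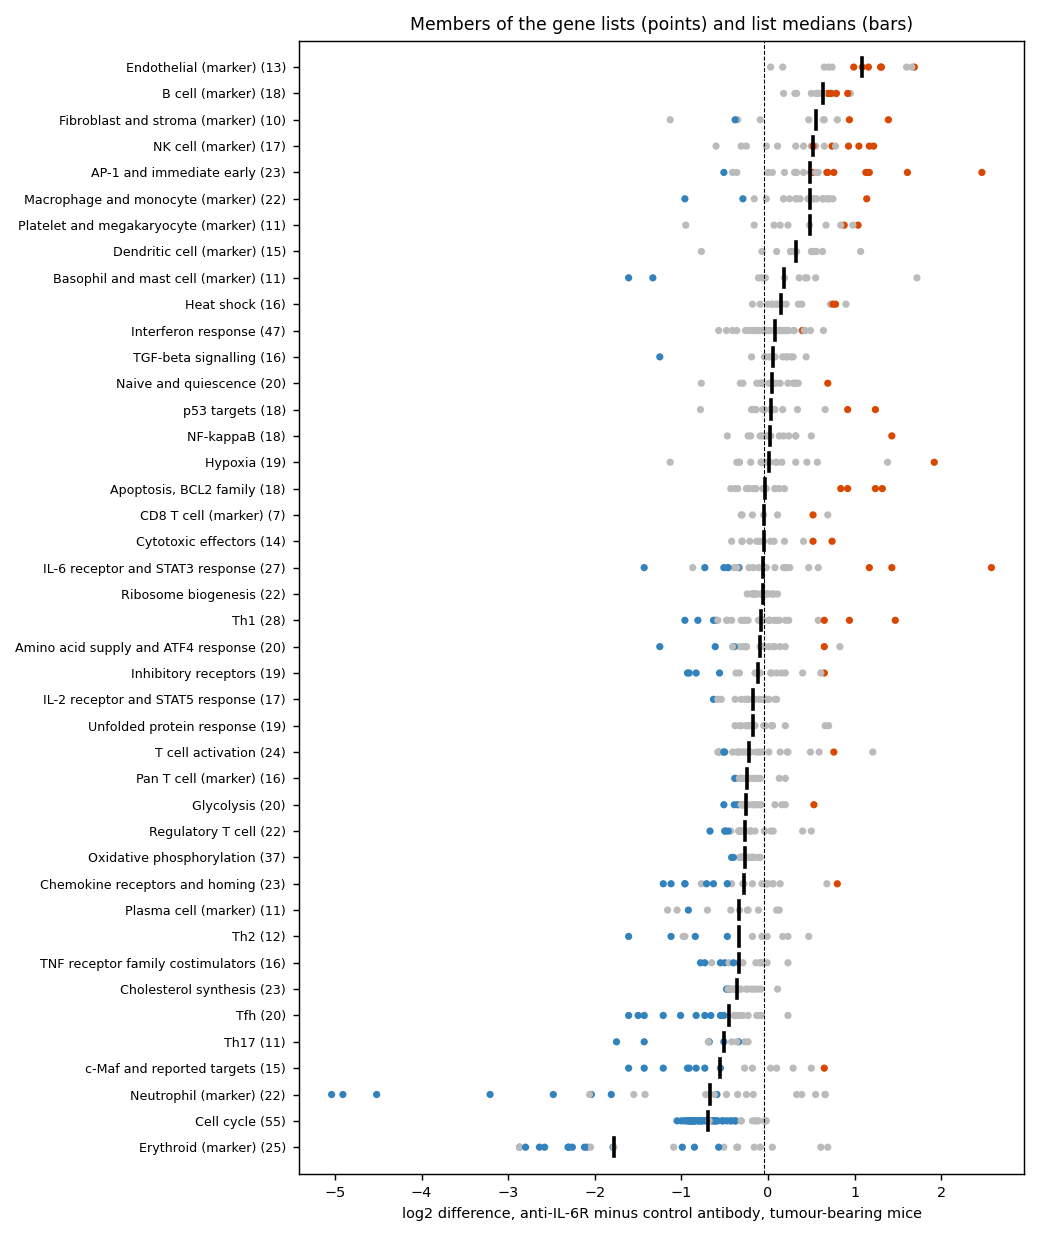
Difference between anti-IL-6R and control antibody in tumour-bearing mice (horizontal, log2) for the members of 42 gene lists (1 line each, measured members in brackets); orange points rose, blue points fell, grey points did not pass, black bars are list medians and the dashed line is the median of all genes. Red cell (-1.78) and cell cycle (-0.69) genes have the lowest medians and endothelial markers (1.09) the highest.

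Ranked by size, the largest changes were those of other cell types and of dim genes. Of the 12 largest rises, 9 were of genes not well above background on either control array, among them Prickle4 (at least 4.83-fold), the olfactory receptor gene Olfr943 (at least 4.38-fold) and Txndc8 (at least 3.58-fold). Such genes entered the fit only through the group in which they were bright, so their calls are a description and no p is given for them. Over all calls, 36 of the 437 higher and 27 of the 832 lower genes were of this kind. The 3 that were measured on both sides were Ccn2, Atf3 and Defb26. Ccn2, a matrix growth factor gene, was at -2.72 on both control arrays and at 0.03 and 0.05 under anti-IL-6R, a rise of 2.76 ± 0.27 or 6.76-fold (adjusted p = 0.0157), and Defb26, a beta-defensin gene, rose by 2.38 ± 0.31 (adjusted p = 0.0237). The largest falls after the neutrophil genes were Apol10a (at least 2.68-fold), the erythroid factor Sox6 (at least 5.84-fold), Rhd, Cldn13 (-2.80 ± 0.60, adjusted p = 0.0395), Slc2a4 (at least 3.55-fold), Pdia2 (at least 1.64-fold), Apol11b (-2.73 ± 0.34, adjusted p = 0.0237) and the amino acid transporter gene Slc38a5 (-2.71 ± 0.60, adjusted p = 0.0419). Without replicate 8, none of the genes named here that were measured in both groups passed (adjusted p from 0.0633 to 0.244).

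Whether the antibody acted differently in the 2 hosts was tested as the interaction in the same fit; the comparisons of the antibody within each host share no array. In tumour-free mice 1 gene changed (0.00469%), the long non-coding RNA Firre (-3.79, adjusted p = 0.0172), whose second kept probe was at -2.81 and -2.58 under control antibody and at -2.85 and -2.83 under anti-IL-6R. There 1612 genes (7.57%) had an unadjusted p under 0.05, against 6282 (29.5%) in tumour-bearing mice. The difference between hosts passed for 7 genes (0.0329%). For 1 of these, Firre, the effect was higher in tumour-bearing mice (3.90, adjusted p = 0.0399). For 6 (0.0282%) it was lower: Camp (-4.42, adjusted p = 0.017), Ngp (-5.34), Ltf (-5.23, adjusted p = 0.0265), Tox2 (-1.51, adjusted p = 0.0399), Apol11b (-4.51, adjusted p = 0.0441) and Mpo (-2.56, adjusted p = 0.0441). Ngp entered the fit only through the control arrays of tumour-bearing mice, so its call is a description and no p is given. Tox2 was thus the one gene of a T helper list that passed the test of a difference between hosts, and this on its brighter probe. With no filter on dim probes, no gene passed that test. The Tox2 call in tumour-bearing mice was lost with the mean of its probes. In tumour-free mice Tox2 was at 1.70 and 1.61 under control antibody and at 1.73 and 1.60 under anti-IL-6R, close to its 1.70 and 1.65 under anti-IL-6R in tumour-bearing mice. Maf, Il4 and Icos missed the threshold (adjusted p = 0.0616 for each), as did Pdcd1 (0.0679), Cxcr5 (0.083), Tbx21 (0.096), Il21 (0.109) and Ifng (0.132), so no difference between hosts was shown for them. The number of genes past this test was 3 without replicate 8, 14 without replicate 3, 48 without replicate 4 and 463 without replicate 7, and 21, 6, 12 and 320 without replicates 1, 2, 5 and 6.

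**Figure D5:**
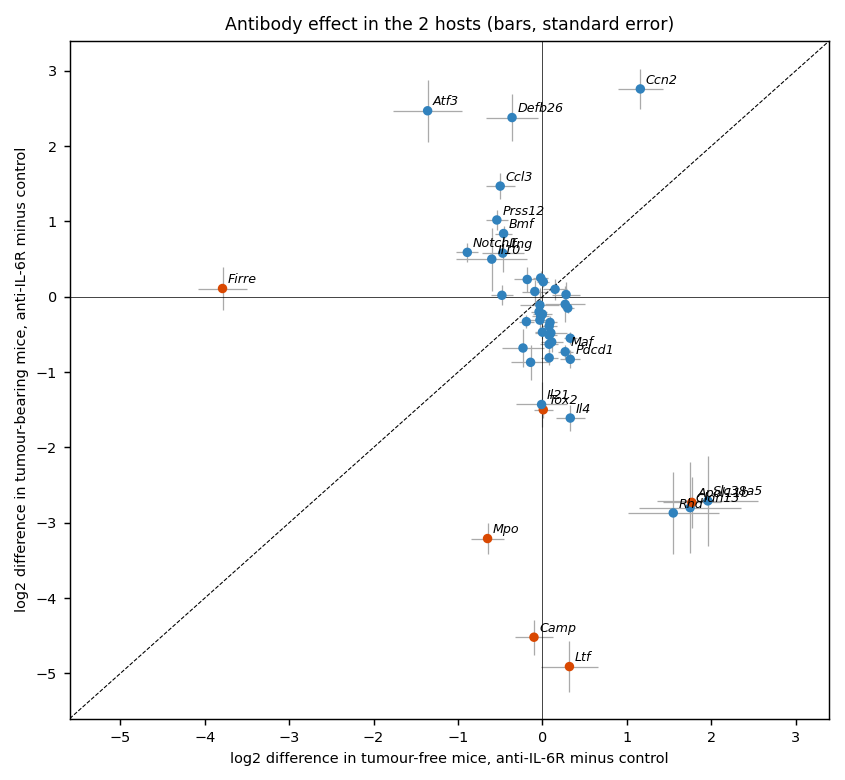
Antibody effect in tumour-bearing mice (vertical) against that in tumour-free mice (horizontal), log2 differences with standard errors, for 48 named genes measured in both antibody groups of tumour-bearing mice; orange points are the 6 of these past the threshold for the difference between hosts and the dashed line marks equal effects. Camp, Ltf, Mpo and Tox2 lie below the line near 0 on the horizontal axis, and Firre (-3.79 in tumour-free mice) lies far to the left.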

How the data were processed

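The 8 arrays (4 groups of 2) read Cy3-marked RNA, prepared from 0.1 ug of RNA. The authors' deposited scanner files hold intensity values (background-subtracted processed signals, per the file headers, on build mm9), made, by the submitters' processing notes, in version 10.10.1.1 of Agilent Feature Extraction. The deposited value table holds log2 values with no stated scaling; each column equalled the log2 signal minus the array's 75th percentile computed here (r = 1, median offset at most 0.0081), with column medians of -3.33 to -3.09.

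Control spots (3671 of 62976) and outlier spots (60 to 95 per array) were dropped and spots of a probe averaged, which left 56587 probes. Probes well above background on both arrays of either tumour-bearing group were kept (31733), and a gene was represented by the brightest of its kept probes (21306 genes, of which 6867 had more than 1). Names followed RefSeq by accession (33055 probes), symbol (10178) or synonym (514), and 12840 kept the file's name. limma 3.58.1 (R 4.3.3) fitted 4 group means with an intensity trend (4 residual degrees of freedom, prior 4.17); tests were two-sided with Benjamini-Hochberg adjustment over all genes. The procedure was tested on simulated data. Arrays give no counts, and their number limits the precision. The p-values rest on the spread between the 2 samples of a group, pooled over the 4 groups and shared across genes.

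Named genes were, for rises and falls, the 12 largest called changes of at least 2-fold whose groups did not overlap, with official-style symbols and without immunoglobulin or T cell receptor segments. The rule added up to 6 per direction for the difference between hosts, 35 preset genes, up to 4 members with the smallest p per list, and defining markers. With fewer than 5 such genes, those with the smallest p served. Ascl2, Sh2d1a, Mki67, Cdk1, Ccnb1, Fos, Fosb, Dusp1, Ccl4, Cxcr4, Tnfrsf18, Zfp36l2, Lcn2, Ly6g and Ahsp were added after their values were seen. The comparison and the gene lists were chosen with earlier results of these data known. Of 94 named genes with more than 1 kept probe, 19 had probes of opposite sign. Alternatives were quantile normalization, normexp correction, the deposited table, other filters, the mean of a gene's probes, other variance models and leaving out each array. Some preset genes are not reported here.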

Additional observations from a re-analysis of the deposited data

Results flagged for a closer look

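For 7 genes the antibody effect differed between tumour-bearing and tumour-free mice (limma's interaction test, difference of log2 differences). Camp differed by -4.42 (-4.52 in tumour-bearing and -0.10 in tumour-free mice), Ngp by -5.34 (-5.04 and 0.30) and Ltf by -5.23 (-4.91 and 0.32). Ngp entered the fit only through the control arrays of tumour-bearing mice, so its call is a description. Mpo differed by -2.56 (-3.21 and -0.65) and Apol11b by -4.51 (-2.73 and 1.77). Tox2 differed by -1.51 (-1.50 and 0.01). Firre, a long non-coding RNA, differed by 3.90 because it was lower under anti-IL-6R in tumour-free mice (-3.79) and not in tumour-bearing mice (0.11). Its second kept probe did not show this: the difference in tumour-free mice was -0.14 there.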

How the results depend on the processing

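The 4 arrays of the comparison limit every call. In tumour-bearing mice the count of changed genes (1269) was 25 with no filter on dim probes, 749 with the tumour-bearing arrays fitted alone and 95 with no intensity trend, and it ranged from 20 to 1736 with 1 array left out; the share that was higher moved from 34.4% to between 32.9% and 34.6% under other scalings, to 48.0% with no filter, 47.4% with no trend, and to between 24.1% and 74.0% with 1 array left out. For the difference between hosts (7 genes) it was 4 under quantile normalization, 0 in limma with no filter (5348 genes had an unadjusted p under 0.05 with the filter), and 3 with the mean of a gene's probes; it ranged from 3 to 463 with 1 array left out. Lists with a median below 0 numbered 26 of 42, 21 under quantile normalization. Of 756 recomputed list medians, 20 changed sign. Of the 135 named genes past the threshold, 117 lost their call with no filter on dim probes and 100 with no intensity trend. Maf was among them in both settings. Of the named genes' recomputed values, 3237 stayed on the same side of the threshold, 709 fell short of it and 65 passed it newly. The 3237 include genes short of the threshold in both fits, whose sign could turn. Tnf, for example, stood at 0.02 with all arrays and at -0.19 without replicate 3. Among values past the threshold in either fit, 2 reversed: Lingo2 (-0.36 with no filter) and Ikzf3 (0.04 with the mean of its probes). The cause was not tested. No paired analysis was possible because the labels, which number the arrays 1 to 8, do not say which arrays of different groups came from the same experiment; arrays of different groups may share one, and no block was assigned.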

Other observations

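Genes of metabolism were described by lists that the helper T cell programmes do not cover. All 37 measured genes of oxidative phosphorylation had a difference below 0 under anti-IL-6R in tumour-bearing mice, against 57.5% of all genes, with a median of -0.27 (-0.17 under quantile normalization). The test was passed by 2 of them, a share near the 3.91% of all genes that fell, and by none without replicate 3, 4 or 8: Ndufb9, a subunit of complex I (-0.42 ± 0.09, adjusted p = 0.0404), and Uqcrq, a subunit of complex III (-0.40 ± 0.09, adjusted p = 0.0474). In cholesterol synthesis 22 of 23 differences were below 0, with a median of -0.36, and Pmvk, Hsd17b7 and Sqle fell by 0.48 ± 0.08, 0.47 ± 0.09 and 0.45 ± 0.10. Glycolysis had a median of -0.25, with Tpi1, Gapdh and Aldoc lower and Pfkl higher (0.53 ± 0.10) among 20 genes. Another Pfkl probe gave -0.18 ± 0.11. Gapdh, often used as a reference gene, was at 8.03 and 7.99 under control antibody and at 7.75 and 7.58 under anti-IL-6R. Its difference was -0.35 ± 0.08 (adjusted p = 0.0447). Asns, the asparagine synthetase gene that ATF4 induces, was at 0.39 and 0.13 and then at -0.86 and -1.12 (-1.25 ± 0.14, adjusted p = 0.0192). The chaperone genes Dnaja1 and Dnajb4 rose by 0.78 ± 0.17 and 0.75 ± 0.12 among 16 heat shock genes. Of these 16 genes, 14 were above 0, against 41.1% of all genes. Of 47 interferon response genes 1 rose (Gbp6 at 0.40 ± 0.09, adjusted p = 0.0462), with a median of 0.08. Without replicate 8 none of the genes named here passed (adjusted p from 0.082 to 0.273).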
